A study of Mus musculus with 6 samples.

Results

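The interferon-inducible p200 or PYHIN family is a set of neighbouring mouse genes on chromosome 1, and its expression was read in sorted haematopoietic stem cells (HSC). The family list holds 10 genes, namely Aim2, Ifi202b, Ifi203, Ifi204, Ifi205, Mnda, Mndal, Pydc3, Pydc4 and Pyhin1, and all 10 were found among the 24062 rows of the deposited gene table. The CDKO group carried Nr4a1 fl/fl, Nr4a3-/- and Rosa26-ERt2 alleles, and the control group carried Nr4a1 fl/fl and Nr4a3-/- without Rosa26-ERt2. Both groups received tamoxifen at 120 mg/kg on 4 successive days, which excises floxed Nr4a1 where the Rosa26-driven recombinase is active, and HSC were taken on day 5. Every library is a pool of cells from 3 to 5 mice, with 3 CDKO pools and 3 control pools. Nr4a3 is deleted in both groups, so the comparison is of added Nr4a1 excision, together with the Rosa26-ERt2 allele, on an Nr4a3-null background. Only the CDKO group carries Rosa26-ERt2, so Nr4a1 excision and the active recombinase cannot be told apart. No group with intact Nr4a3 is part of the comparison. The strain background of the animals is not given in the sources used here.

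A typical PYHIN protein pairs an amino-terminal pyrin domain, which binds other pyrin domains, with a carboxy-terminal HIN domain, which binds double-stranded DNA. Not every member has both domains. Aim2 is the cytosolic DNA sensor that nucleates an inflammasome through Pycard and caspase-1, Ifi204 is a DNA sensor linked to the STING pathway, and several relatives are nuclear proteins that bind transcription factors and cell cycle regulators. Type I interferon induces most of the family through promoter elements recognised by interferon regulatory factors, and in blood-forming tissue the family is best known from macrophages and other myeloid cells.

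The members were chosen by a family list drawn up with this CDKO and control contrast already known, so their differences are given as a description, with no p-value, and counts of members past a threshold support nothing. Of the 10 members, 9 had a mean of at least 10 reads over the 6 libraries and entered the fit across 13734 genes. Among those 9, 4 genes (Ifi204, Ifi205, Mnda and Pydc3) averaged under 10 reads in the control pools and so passed only through the CDKO pools.

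Promoter sequence is shown first. The list did not use sequence, but it names an interferon-inducible family, so an interferon motif is not independent of the choice of members. RefSeq promoter windows on GRCm38.p6 reach from 250 bases before to 50 bases after each annotated start. Of the 10 members, 9 have an entry, and Ifi204 has none. The motif searched on both strands was GAAANNGAAA, the core of an interferon-stimulated response element. The lines below give 40 bases around the match, 5′ to 3′ on the gene's own strand, with the 10 bases of the match in capitals. For Pyhin1 and Aim2, which hold no match, the capitals mark the 10 bases at the same place in the window most like that of Pydc4. Ifi202b, which also holds no match, is left out of the lines.
Pydc4: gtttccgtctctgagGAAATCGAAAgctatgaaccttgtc
Pydc3: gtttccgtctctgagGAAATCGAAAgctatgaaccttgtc
Mndal: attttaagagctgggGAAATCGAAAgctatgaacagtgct
Ifi203: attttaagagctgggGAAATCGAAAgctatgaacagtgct
Mnda: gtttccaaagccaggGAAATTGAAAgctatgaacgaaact
Ifi205: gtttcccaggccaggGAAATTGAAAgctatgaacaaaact
AI607873: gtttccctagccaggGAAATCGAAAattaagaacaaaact
Pyhin1: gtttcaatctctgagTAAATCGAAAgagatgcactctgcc
Aim2: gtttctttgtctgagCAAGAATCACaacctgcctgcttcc

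Pydc4 (chr1:173599321-173599360, minus strand) and Pydc3 (chr1:173673592-173673631, plus strand) had identical 40-base windows. Mndal (chr1:173880199-173880238) and Ifi203 (chr1:173942503-173942542), both on the minus strand, were also identical to each other and matched the Pydc4 window at 28 of 40 bases. The windows of Mnda (chr1:173913059-173913098) and Ifi205 (chr1:174031865-174031904), again on the minus strand, had GAAATTGAAA in place of GAAATCGAAA. Pyhin1 (chr1:173630765-173630804, plus strand) matched Pydc4 at 31 of 40 bases but differed at the first base of the element, G16T, with positions counted from the 5′ end of the Pydc4 window and its base given first. AI607873 (chr1:173741826-173741865, minus strand) is the table's name for a PYHIN gene outside the list, called Ifi207 in RefSeq. Aim2 (chr1:173420552-173420591, plus strand) had no better alignment than 19 of 40 bases.

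The motif occurred in the windows of 6 of the 9 members with an entry, against 3.993% of all 27025 genes with a RefSeq promoter window. Some members have identical windows, as do Pydc4 and Pydc3, so they are not separate cases. Nothing is read from the difference between these shares. The windows of Aim2, Ifi202b and Pyhin1 held none, which says only that these letters are not in those windows. The exact element GAAATCGAAA was found in the promoters of 16 genes, and 7 of those 16 were PYHIN genes, including Ifi206 and Ifi214, which were not matched to a row of the table. The interferon-gamma type motif TTCNNNGAA reads the same on both strands. It was present in the windows of 9.554% of all 27025 genes and, within the family, in Ifi202b alone. Among the other 9 genes with the exact element, 5 were tested, of which 4 rose and 1 fell in CDKO pools. Over all genes tested, 31.1% were higher and 35.2% lower in CDKO pools (limma adjusted p under 0.05). Ddx58, the RIG-I RNA sensor, had 244 ± 7.05 CPM in CDKO pools and 137 ± 5.14 CPM in control pools. Parp11 had 101 ± 5.21 CPM in CDKO pools and 56.7 ± 4.04 CPM in control pools, and Serpinb6a had 66.6 ± 1.73 CPM in CDKO pools and 50.7 ± 0.923 CPM in control pools (SD, n = 3 each). Ripk1 had 171 ± 8.37 CPM in CDKO pools and 145 ± 8.12 CPM in control pools. Pnrc1, the gene that fell, had 263 ± 6.51 CPM in CDKO pools and 293 ± 10.8 CPM in control pools.

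**Figure D1:**
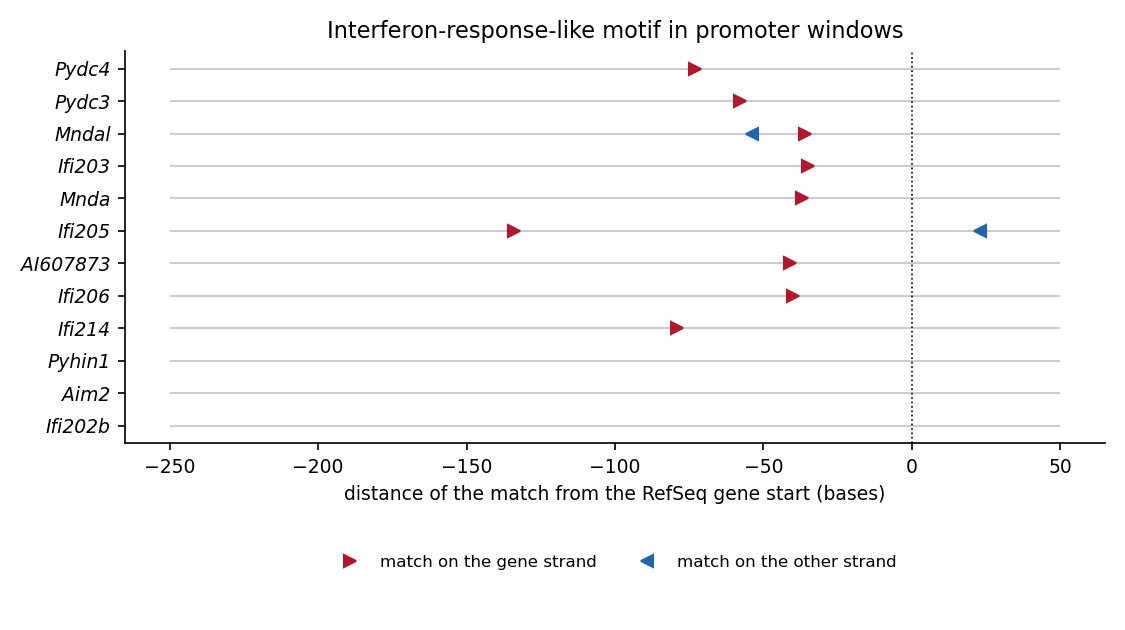
Position of each match to the interferon-response-like motif, in bases from the RefSeq gene start (horizontal axis), for 12 PYHIN genes with a promoter entry; red arrows mark matches on the gene's strand and blue arrows the other strand, and distances for Mndal are each from the start site of its own window. Matches on the gene's strand lay between 134 and 35 bases before the start, and Pyhin1, Aim2 and Ifi202b had none.

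Expression values are the deposited CPM, in which a gene's count is scaled to the library's total, which could be turned back into whole reads (99.9989% of values within 0.01 of a whole number). The pools held 32863805, 41475747 and 42772261 counted reads in CDKO and 39111308, 36464747 and 42348692 in control. Log2 differences are CDKO minus control on the log2(CPM + 1) scale with the limma standard error, and this scale understates the change of genes with low CPM. The sources do not say whether pools share animals or sort days, so the spread between pools may be partly technical. In bulk RNA, fewer cells of a type and less RNA per cell cannot be told apart.

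The targeted gene was read first. Nr4a1 had 8.52, 9.76 and 9.12 CPM in CDKO pools and 15.2, 13.4 and 12.9 CPM in control pools, and it fell by 0.55 on the log2 scale (limma, SE 0.12, Benjamini-Hochberg adjusted p = 0.00204). Counts per gene do not show which exons the reads came from. Nr4a3 had no read in any of the 6 pools, and Nr4a2 had 2.43 ± 1.22 CPM in CDKO pools and 3.86 ± 0.282 CPM in control pools (limma adjusted p = 0.0547).

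Of the 9 members in the fit, 8 were higher and 1 was lower in CDKO pools at an adjusted p under 0.05. Of all 13734 genes tested, 66.2% passed that threshold, 31.1% as higher and 35.2% as lower in CDKO. The CDKO pools lay wholly above the control pools for 8 members and for 33.4% of all genes tested, and wholly below them for 1 member and for 37.2% of all genes. Because the list was chosen on this contrast, nothing is read from the difference between these shares.

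Aim2, the inflammasome-forming DNA sensor, was the member that was lower in CDKO HSC. It had 20.7, 30.2 and 22.7 CPM in CDKO pools and 62.1, 62.1 and 58.3 CPM in control pools. The groups did not overlap, and the second CDKO pool was the highest of its group. The log2 difference was -1.29 (SE 0.12), and the control mean was 2.48 times the CDKO mean.

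Ifi202b encodes a HIN protein without a pyrin domain that inhibits Aim2 in mouse cells. A single read was found in the third CDKO pool, with none in the other CDKO pools and none in any control pool. A count of 0 allows up to 0.0767, 0.0823 and 0.0708 CPM in the control pools (3 counts, counting error only), so the gene was at or under the detection limit in both groups.

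Ifi203 and Mndal, which encode nuclear p200 proteins, carried most of the family's reads. Ifi203 had 160, 152 and 144 CPM in CDKO pools and 117, 112 and 125 CPM in control pools. Mndal had 128, 124 and 130 CPM in CDKO pools and 80.9, 80.9 and 86.9 CPM in control pools. Both were higher in every CDKO pool than in any control pool, by small steps: the log2 difference was 0.36 (SE 0.06) for Ifi203 and 0.62 (SE 0.05) for Mndal, which correspond to ratios of mean CPM of 1.29 and 1.54. The reads of Mndal per read of Ifi203 were 0.801, 0.818 and 0.906 in CDKO pools and 0.690, 0.723 and 0.696 in control pools, so this ratio did not overlap between the groups either.

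Ifi204 had hardly any reads in control pools. Its protein senses DNA upstream of STING and also binds nuclear regulators of the cell cycle and differentiation. It had 11.5, 9.21 and 10.6 CPM in CDKO pools (379, 382 and 454 reads) and 0, 0.740 and 0 CPM in control pools (0, 27 and 0 reads). All 27 control reads came from the second control pool. The log2 difference was 3.25 (SE 0.22), which DESeq2 with a fold change prior no longer called, and the ratio of mean CPM was 42.3, with a 95% interval from the pooled read counts (exact binomial, counting error only) of 31.0 to 69.0.

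Pydc3 and Pydc4 are close relatives, named Ifi208 and Ifi213 in RefSeq, and share the promoter window shown above. Pydc3 had 8.37, 4.46 and 5.40 CPM in CDKO pools and 0, 0.219 and 0 CPM in control pools, where its 8 reads again all came from the second control pool. Pydc4 had 12.8, 10.1 and 11.5 CPM in CDKO pools and 2.22, 2.44 and 2.15 CPM in control pools. The groups were apart for both genes, with a near-empty control group for Pydc3 and a measurable one for Pydc4. The log2 difference was 2.69 (SE 0.20) for Pydc3, which DESeq2 with a fold change prior no longer called, and 1.92 (SE 0.14) for Pydc4, and the ratios of mean CPM were 83.1 (95% counting interval 43.9 to 202) and 5.04.

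Pyhin1, named Ifi209 in RefSeq, had 3.99, 4.24 and 4.82 CPM in CDKO pools and 0.793, 0.932 and 0.779 CPM in control pools. Its ratio of 5.21 was close to that of Pydc4, and its log2 difference was 1.54 (SE 0.15).

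Mnda and Ifi205 had the fewest reads in CDKO pools after Ifi202b. The Mnda row corresponds to RefSeq Ifi211; the human MNDA protein is a nuclear antigen of myeloid cells. Mnda had 2.22, 0.868 and 1.12 CPM in CDKO pools (73, 36 and 48 reads) and 0.0511, 0.0548 and 0.142 CPM in control pools (2, 2 and 6 reads). Ifi205, which in mouse macrophages bears on the expression of the inflammasome adaptor, had 1.83, 0.964 and 0.842 CPM in CDKO pools (60, 40 and 36 reads) and no read in control pools. For both genes the first CDKO pool was the highest and no control pool reached the lowest CDKO pool. The ratio for Mnda was 17.0 (95% counting interval 8.37 to 33.6), and Ifi205 was at least 14.7-fold higher in CDKO pools when 3 counts per control pool are taken as the floor; the log2 differences were 1.11 (SE 0.20) and 1.12 (SE 0.18).

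AI607873, the PYHIN gene that is not on the list, went the other way from its neighbours. It had 0.0304, 0.313 and 0.397 CPM in CDKO pools (1, 13 and 17 reads) and 4.12, 5.24 and 4.23 CPM in control pools (161, 191 and 179 reads). The log2 difference was -2.15 (SE 0.17), the control mean was 18.3 times the CDKO mean, and the groups did not overlap. Its promoter holds the same GAAATCGAAA element as Pydc3, Pydc4, Mndal and Ifi203, so members and this relative with the same 10 bases differed in direction.

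**Figure D2:**
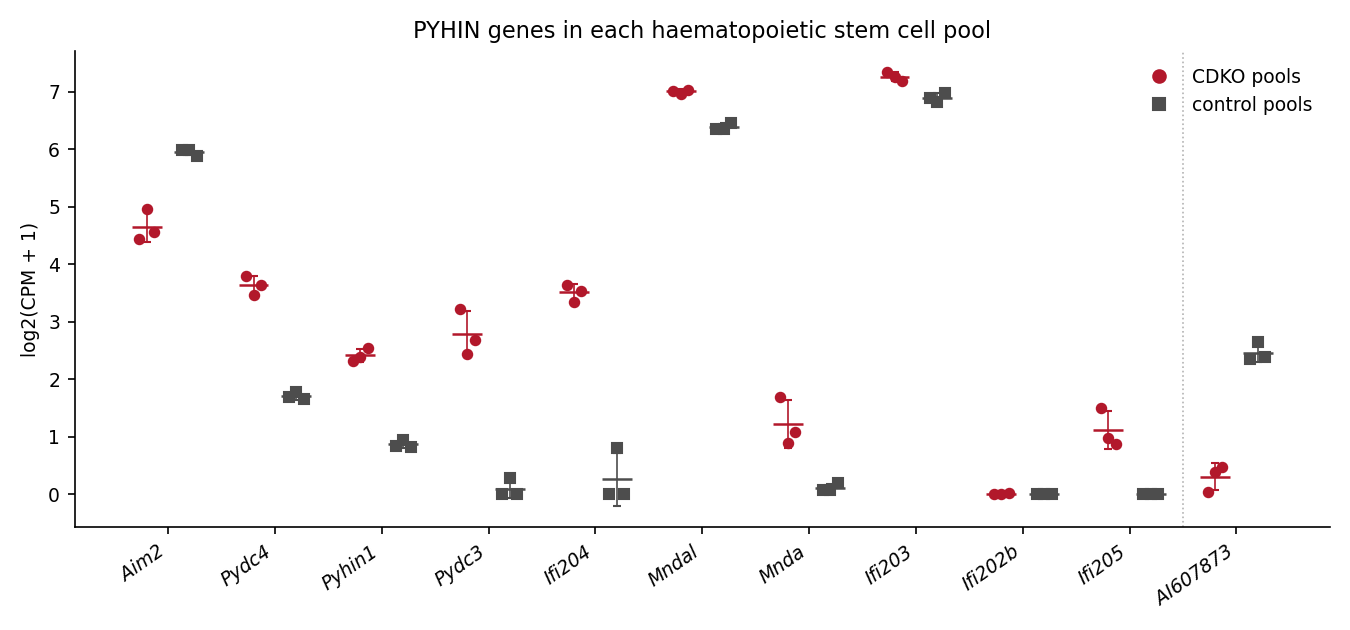
Expression of each PYHIN gene on the log2(CPM + 1) scale (vertical axis) in the 3 CDKO pools (red circles, left) and the 3 control pools (grey squares, right); bars show the mean and SD, and AI607873, right of the dotted line, is not on the family list. CDKO pools lie above control pools for 8 genes and below them for Aim2 and AI607873, and Ifi202b is at 0 or near it in all 6.

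Summed over the 10 members, the family took 339 ± 9.93 CPM in CDKO pools and 265 ± 7.09 CPM in control pools (SD, n = 3 each). The 7 members other than Ifi203, Mndal and Aim2 together had 40.8, 29.8 and 34.3 CPM in CDKO pools and 3.07, 4.39 and 3.07 CPM in control pools. Aim2 made up 7.25 ± 1.59% of the family's CPM in CDKO pools and 22.9 ± 1.41% in control pools. With at least 1 read as the criterion, 9, 9 and 10 members were detected in CDKO pools and 6, 8 and 6 in control pools, and the 8 in the second control pool include Ifi204 and Pydc3.

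Levels were compared between genes only per length, as CPM per kb of the exons annotated for each gene in GENCODE on GRCm38. In CDKO pools, Mndal stood highest at 35.2 ± 0.864 CPM per kb, then Ifi203 at 22.7 ± 1.23, Aim2 at 7.003 ± 1.44, Ifi204 at 2.94 ± 0.328 and Pydc4 at 1.68 ± 0.202. Pyhin1 (1.23 ± 0.120 CPM per kb), Pydc3 (1.16 ± 0.388 CPM per kb) and Mnda (0.786 ± 0.403 CPM per kb) followed, and Ifi205 came after them at 0.290 ± 0.128 CPM per kb. The pools of Pydc3 overlapped those of Pydc4, Pyhin1 and Mnda, and the pools of Pyhin1 and Mnda also overlapped. In control pools, Mndal was again first at 22.8 ± 0.955 CPM per kb, while Ifi203 at 17.6 ± 0.967 and Aim2 at 17.4 ± 0.627 CPM per kb overlapped. Pydc4 came next at 0.332 ± 0.0221 CPM per kb and then Pyhin1 at 0.235 ± 0.0239 CPM per kb, and Ifi204, Mnda, Pydc3, Ifi202b and Ifi205 lay at or near 0, with overlap among the pools of Ifi204, Mnda and Pydc3. Per kb of longest coding sequence instead, Aim2 was first in control pools at 57.2 ± 2.07 CPM per kb, ahead of Mndal at 51.4 ± 2.15 and Ifi203 at 45.2 ± 2.48, so the order of these 3 genes in control pools rests on the length used. In CDKO pools the same length put Pydc4 (6.52 ± 0.786 CPM per kb) above Ifi204 (5.63 ± 0.630 CPM per kb), with overlapping pools. Per kb of longest coding transcript, Pydc3 (2.03 ± 0.682 CPM per kb) lay above Pyhin1 (1.26 ± 0.124 CPM per kb) in CDKO pools.

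**Figure D3:**
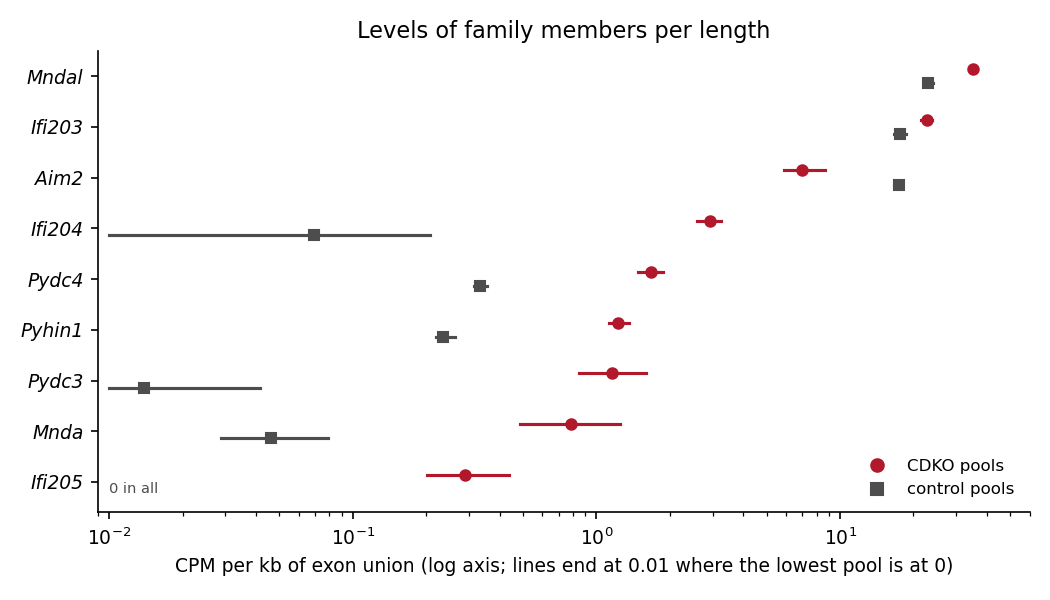
Level of each member in CPM per kb of annotated exon (horizontal log axis) in CDKO pools (red circles) and control pools (grey squares); symbols are means of 3 pools and lines run from the lowest to the highest pool. Mndal and Ifi203 lead in both groups, Aim2 lies below them in CDKO pools and beside Ifi203 in control pools, and the 6 lower members drawn here are spread over about 0.3 to 3 CPM per kb in CDKO pools.

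The spread among pools was close to counting error for only part of the family. In CDKO pools the coefficient of variation was 2.46% for Mndal, where counting alone gives 1.42%, and 9.77% for Pyhin1, where counting gives 7.65%. It was 20.6% for Aim2 in CDKO pools, where counting gives 3.22%, and 3.61% in control pools, where counting gives 2.05%. Pydc3 and Mnda varied by 33.6% and 51.2% among CDKO pools, where counting gives 6.59% and 13.8%.

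The family lies in a single cluster of 682.2 kb at chr1:173349547-174031755 on GRCm38, in the order Aim2, Pydc4, Pyhin1, Pydc3, AI607873, Ifi204, Mndal, Mnda, Ifi203, Ifi202b and Ifi205 among the genes matched to the table. Aim2 is the outermost gene on the low-coordinate side, and AI607873 lies between Pydc3 and Ifi204, the 2 members with the largest differences on the log2(CPM + 1) scale. The PYHIN genes that were lower in CDKO pools did not sit side by side. Of the 27 other annotated genes within 500 kb of the cluster that the table lists, 19 of them olfactory receptor genes by name, 15 had no read in any pool and 5 were tested. Ackr1, an atypical chemokine receptor of erythroid cells and endothelium, rose to 3.91 ± 0.526 CPM in CDKO pools, against 1.05 ± 0.606 CPM in control pools (limma log2 difference 1.30, adjusted p = 0.000188). Fcer1a, a subunit of the mast cell and basophil IgE receptor, had 0.0321 ± 0.0557 CPM in CDKO pools and 4.45 ± 0.216 CPM in control pools (log2 difference -2.40, limma adjusted p = 2.91e-07). Fmn2 and Olfr424 were also lower, at 0.169 ± 0.151 and 0 CPM in CDKO pools and 2.51 ± 0.437 and 0.939 ± 0.338 CPM in control pools.

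**Figure D4:**
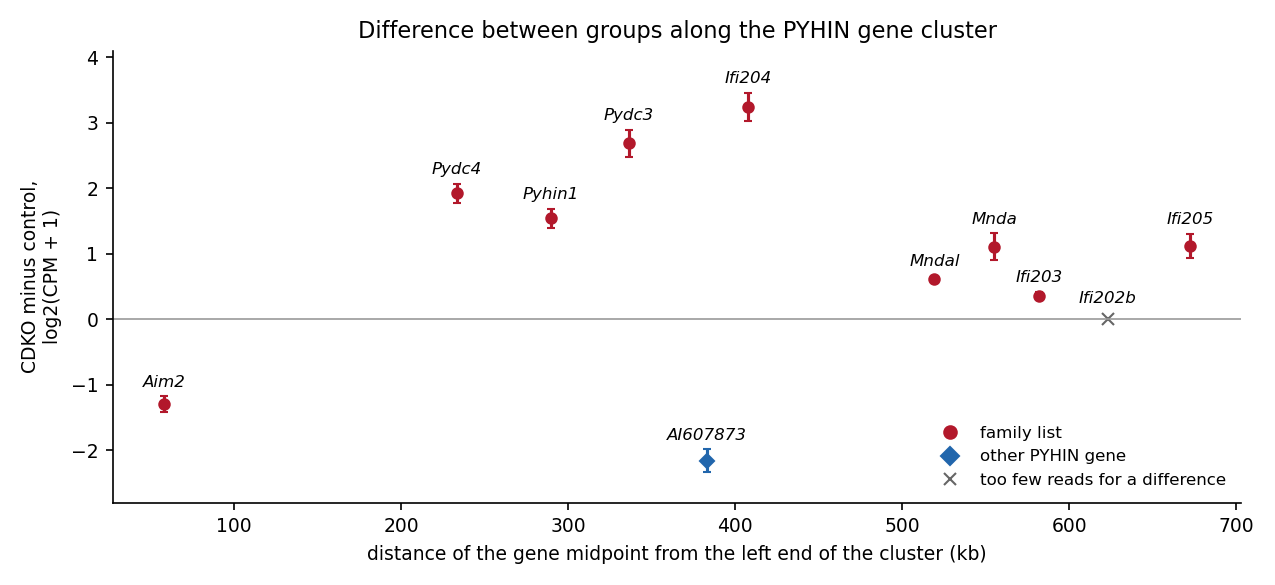
Log2 difference between CDKO and control pools (vertical axis, CDKO minus control, with limma standard error) against the distance of each gene's midpoint from the left end of the cluster in kb. Ifi204 and Pydc3, near the middle, have the largest positive values at 3.25 and 2.69; Aim2 (-1.29), at the left end, and AI607873 (-2.15), between those 2 genes, are negative.

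The members resemble one another in their transcripts, which bears on how reads were assigned to them. Of all 50-base words in the longest coding transcript, 72.9% in Mnda, 49.6% in Ifi205, 34.7% in Pyhin1, 29.9% in Ifi204, 27.9% in Pydc4, 27.2% in Mndal and 25.9% in Pydc3 also occurred in another PYHIN transcript. The partner of Ifi205 was mainly Mnda, that of Pydc4 was mainly Pydc3, and every shared word of Pyhin1 was shared with Ifi214. At 100 bases the shares were still 56.9% for Mnda and 41.5% for Ifi205. The 1785-base Mnda transcript therefore has little sequence of its own, and its reads and those of Ifi205 are uncertain in their assignment. Ifi203 shared 10.6% and AI607873 shared 5.31% of 50-base words, and Aim2 and Ifi202b shared none, so the values of Aim2 do not rest on sequence of a relative at this length. Exons of Mndal and Ifi203 overlap for 1.02% and 0.552% of their annotated bases. The sources used here do not say how reads that map to several places were counted.

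The authors' deposited table holds its own log2 fold changes, which run control over CDKO and therefore have the opposite sign. The authors' deposited table gives 1.28 for Aim2, -0.38 for Ifi203, -0.64 for Mndal, -2.31 for Pydc4 and -2.31 for Pyhin1, close in size to values from the recovered reads without a prior (DESeq2: -1.29, 0.38, 0.64, 2.35 and 2.40, CDKO over control). For Ifi204 and Pydc3 the authors' deposited table gives only -1.09 (standard error 0.643) and -2.03 (standard error 0.699), whereas DESeq2 without a prior gave 5.42 and 6.41 from the reads. All control reads of these 2 members came from 1 pool. For Mnda and Ifi205 the authors' deposited table gives -3.15 (standard error 0.576) and -4.44 (standard error 0.650), whereas DESeq2 without a prior gave 4.09 and 8.03, the value for Ifi205 being no bound since its control pools had no read. With a fold change prior, DESeq2 gave 0.21 for Ifi204, 0.41 for Pydc3, 1.43 for Mnda and 1.48 for Ifi205, which match neither the deposited nor the unshrunken values. Over 16946 genes the prior-based values differed from the deposited ones by a median of 0.0162 on the log2 scale, and 43.9% were within 0.01.

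The profiles most like those of the 3 most abundant members were found by the mean absolute difference of centred log2(CPM + 1) values over the 6 pools. Nearest to Ifi203 were Cdkn1b (0.0182), Snrpd3 (0.0191) and Acot9 (0.0225). Nearest to Mndal were Adsl (0.0189), Fkbp1a (0.0200) and Slc29a2 (0.0206). Nearest to Aim2 were Acad11 (0.0193), Npr2 (0.0312) and Diap2 (0.0322). Acad11, for example, had 22.8 ± 3.97 CPM in CDKO pools and 57.7 ± 2.39 CPM in control pools. None of these 9 is a PYHIN gene, and with 6 pools in 2 groups such likeness includes the difference between the groups.

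The genes around Aim2 in the inflammasome moved in both directions. Of 18 inflammasome genes tested, 9 rose and 5 fell in CDKO pools, with a median log2 difference of 0.33, beside -0.02 over all genes tested. Of all genes tested, 31.1% were higher and 35.2% lower at the same threshold. Those shares also stand beside the counts of each list that follows. The pathway lists were chosen with earlier results of these data known, so their counts and medians are a description and support nothing. Casp8, an apoptotic caspase that can join the Aim2 complex, rose to 224 ± 6.02 CPM in CDKO pools, against 140 ± 4.91 CPM in control pools (limma adjusted p = 5.22e-07). Il18bp, the soluble inhibitor of interleukin-18, rose to 35.1 ± 1.04 CPM in CDKO pools, against 19.9 ± 0.963 CPM in control pools (limma adjusted p = 1.17e-05). Il1rn, the interleukin-1 receptor antagonist, fell to 0.0395 ± 0.0359 CPM in CDKO pools, against 1.90 ± 0.544 CPM in control pools (limma adjusted p = 2.04e-05), and Nlrc4, another inflammasome sensor, fell to 0.137 ± 0.237 CPM in CDKO pools, against 1.90 ± 0.333 CPM in control pools (limma adjusted p = 4.95e-05, but 0.0747 in DESeq2). Pycard and Casp1, through which Aim2 nucleates its inflammasome, were picked after their values were seen. Pycard had 79.1, 73.8 and 71.7 CPM in CDKO pools and 59.5, 51.7 and 53.4 CPM in control pools. Casp1 had 68.3, 64.3 and 62.2 CPM in CDKO pools and 50.6, 53.8 and 53.9 CPM in control pools. Both were higher in every CDKO pool, the opposite direction from Aim2. Casp4 and Gsdmd, also picked after their values were seen, were lower, the direction of Aim2. Casp4 had 32.8 ± 0.597 CPM in CDKO pools and 42.3 ± 1.53 CPM in control pools (limma adjusted p = 0.00101). Gsdmd had 99.2 ± 5.44 CPM in CDKO pools and 109 ± 4.59 CPM in control pools, and its pools overlapped (limma adjusted p = 0.0478). Il1r1 and Naip5 did not pass the test, and Il1a and Nlrp3 had no read in any pool.

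In the cGAS-STING route, which Ifi204 is linked to, 7 of 15 tested genes rose and 1 fell, with a median log2 difference of 0.18. Irf7, the transcription factor that amplifies interferon production, rose to 489 ± 24.97 CPM in CDKO pools, against 109 ± 1.75 CPM in control pools (limma adjusted p = 3.73e-10). Zbp1, a sensor of Z-form nucleic acid, rose to 108 ± 5.78 CPM in CDKO pools, against 37.1 ± 2.55 CPM in control pools, and the RNA editor Adar rose to 341 ± 15.4 CPM in CDKO pools, against 202 ± 4.82 CPM in control pools. Rnaseh2a, a subunit of the nuclease that removes RNA from DNA hybrids, rose to 84.7 ± 2.08 CPM in CDKO pools, against 58.4 ± 1.42 CPM in control pools (limma adjusted p = 8.74e-06). STING itself (Tmem173) had 82.2 ± 5.69 CPM in CDKO pools and 75.7 ± 2.07 CPM in control pools, and Irf3 had 80.5 ± 0.477 CPM in CDKO pools and 87.7 ± 6.26 CPM in control pools; neither passed the test (limma adjusted p = 0.118 and 0.101). Ifnb1, the interferon-beta gene, had no read in any pool.

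Of the 16 genes that relay interferon signals from receptor to nucleus, 7 rose and 2 fell, with a median log2 difference of 0.10. Usp18, an interferon-induced brake on the type I receptor, rose to 151 ± 8.33 CPM in CDKO pools, against 81.8 ± 2.82 CPM in control pools, and Stat2, a subunit of the factor that binds interferon response elements, rose to 290 ± 16.5 CPM in CDKO pools, against 184 ± 4.24 CPM in control pools. The kinase Jak1 fell to 598 ± 3.45 CPM in CDKO pools, against 866 ± 21.9 CPM in control pools, and the myeloid interferon regulatory factor Irf8 fell to 15.6 ± 2.40 CPM in CDKO pools, against 40.9 ± 3.63 CPM in control pools (limma adjusted p at most 2.70e-06 for these 4 genes). Jak2 and Irf1 did not pass the test. Among 30 other interferon-stimulated genes, 29 rose and none fell, with a median log2 difference of 1.17. Oas2, which makes the 2-5A second messenger, rose to 192 ± 6.75 CPM in CDKO pools, against 39.5 ± 1.78 CPM in control pools. Ifit3, an antiviral scaffold protein, rose to 113 ± 7.25 CPM in CDKO pools, against 11.4 ± 0.806 CPM in control pools, and its log2 difference of 3.20 was the one nearest to that of Ifi204. Ifit1 had 185 ± 10.2 CPM in CDKO pools and 38.1 ± 2.19 CPM in control pools, and Oas3 had 205 ± 13.6 CPM in CDKO pools and 62.2 ± 1.54 CPM in control pools. Parp14 was the gene of this list that did not pass, at 121 ± 5.09 CPM in CDKO pools and 122 ± 3.57 CPM in control pools.

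**Figure D5:**
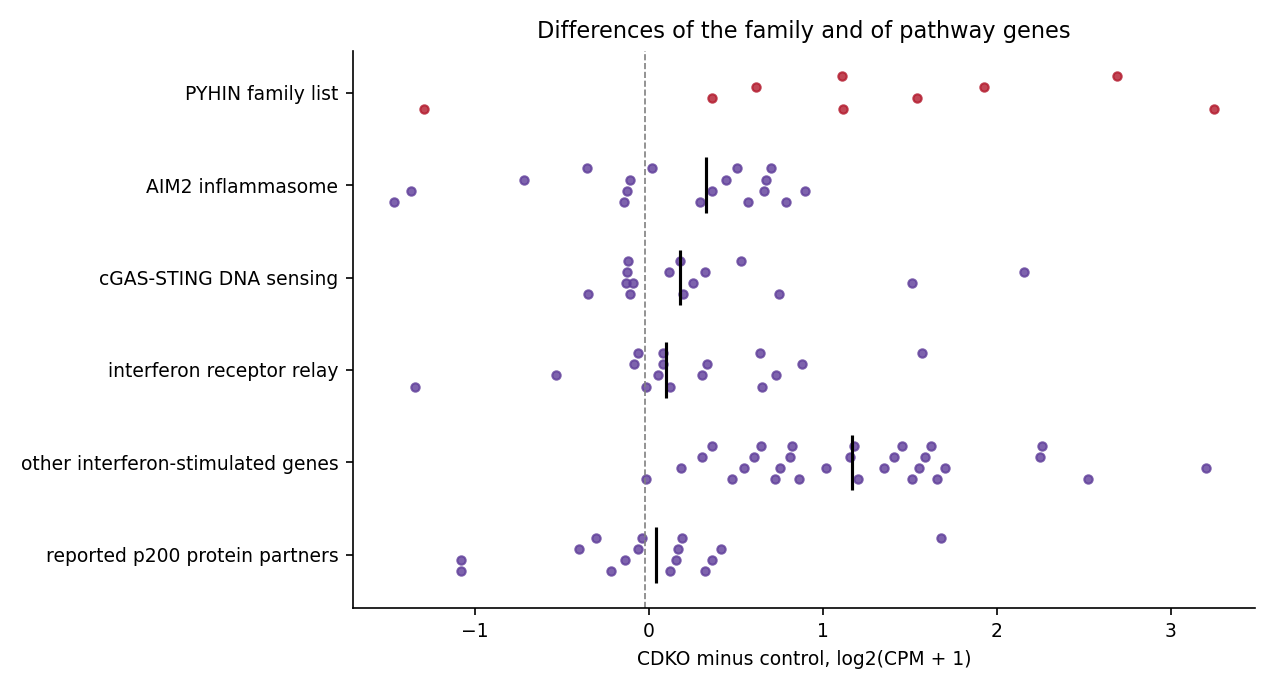
Log2 difference between CDKO and control pools (horizontal axis) for the 9 measured members (top, red) and for the tested genes of 5 pathway lists (purple); each point is a gene, vertical bars are list medians and the dashed line is the median of all genes tested. Points of the interferon-stimulated list lie almost wholly right of 0 with a median of 1.17, while the p200 partner list is centred near 0 at 0.04. The lists were chosen with earlier results of these data known.

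Proteins reported to bind p200 family members were evenly divided. Of 16 tested, 6 rose and 6 fell, with a median log2 difference of 0.04. Jun rose to 29.8 ± 2.77 CPM in CDKO pools, against 8.64 ± 0.920 CPM in control pools (limma adjusted p = 7.53e-07). Runx2, a bone and haematopoietic transcription factor, fell to 68.8 ± 1.99 CPM in CDKO pools, against 147 ± 9.20 CPM in control pools, and Myc fell to 382 ± 7.66 CPM in CDKO pools, against 505 ± 31.7 CPM in control pools. Id3, an inhibitor of helix-loop-helix factors, had no read in CDKO pools and 1.11 ± 0.0825 CPM in control pools. The retinoblastoma gene Rb1 had 51.1 ± 5.82 CPM in CDKO pools and 53.2 ± 3.52 CPM in control pools, and its target E2f1 had 85.9 ± 6.996 CPM in CDKO pools and 88.4 ± 6.61 CPM in control pools; neither passed the test.

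The HSC label was checked against 15 stem cell surface and core genes, which were all measured in both groups and summed to 6227 to 6433 CPM in CDKO pools and 6603 to 6917 CPM in control pools. Of these, 5 rose and 6 fell, with a median log2 difference of 0.02. Meis1, a homeobox factor of HSC, had 809 ± 16.8 CPM in CDKO pools and 778 ± 1.87 CPM in control pools, and Ly6a, the Sca-1 surface antigen that is itself interferon-inducible, rose to 325 ± 50.1 CPM in CDKO pools, against 186 ± 7.68 CPM in control pools (limma adjusted p = 1.30e-05). Markers of other blood cells moved with the groups, and their part in the values of the family was not tested. Of 11 neutrophil markers tested, 10 fell, and their summed level was 55.0 to 200 CPM in CDKO pools and 912 to 1179 CPM in control pools; none was at 0 throughout. Of 13 macrophage and monocyte markers tested, 5 rose and 8 fell, with sums of 244 to 281 CPM in CDKO pools and 339 to 372 CPM in control pools. Csf1r, the macrophage growth factor receptor, rose to 21.5 ± 1.68 CPM in CDKO pools, against 3.22 ± 0.626 CPM in control pools, and the myeloid lysozyme Lyz2 fell to 179 ± 13.2 CPM in CDKO pools, against 263 ± 15.8 CPM in control pools. Of 8 erythroid markers tested, 6 fell, with sums of 106 to 117 CPM in CDKO pools and 285 to 307 CPM in control pools, and Hbb-bt, Hba-a1 and Hba-a2 were at 0 in every pool. Of 10 lymphocyte and dendritic cell markers tested, 3 rose and 5 fell, with sums of 166 to 190 CPM in CDKO pools and 188 to 222 CPM in control pools, and Cd3e, Cd3g, Cd8a and Ms4a1 were at 0 in every pool.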

How the data were processed

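RNA from sorted mouse HSC pools was extracted on RNeasy Micro columns, amplified with the SMARTer Ultra Low Input v3 kit and made into Nextera XT libraries, per the labels' protocols. TopHat2, HTSeq, DESeq2 and the mm10 build are named in the submitters' processing notes without versions. The authors deposited 1 table with CPM per library, and the DESeq2 columns of that deposited table hold a mean normalised signal, a log2 fold change with its standard error, a test score and p-values. Of these, the CPM and, for the values credited to the authors, the log2 columns were used.

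CPM were multiplied back to whole reads (99.9989% of values within 0.01 of a whole number), with depths of 32863805 to 42772261 reads. A count of 0 allows up to 0.0701 to 0.0913 CPM (3 counts). Date-like names (12 rows) were left out. Genes with a mean of at least 10 reads (13734) were fitted with limma 3.58.1 (R 4.3.3) on log2(CPM + 1) with a mean-variance trend, two-sided, with Benjamini-Hochberg adjustment over all of them and a threshold of 0.05. The fit was tested on simulated data. Alternatives were no filter, at least 50 reads, pseudocounts of 0.5 and 5, TMM and quantile scaling, the replicate block, count models of the recovered reads in edgeR 4.0.16 and in DESeq2 1.42.0, each pool left out in turn and, added after seeing the data, DESeq2 with a fold change prior.

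Named were every member, the 3 Nr4a genes, other PYHIN genes and neighbours with at least 10 mean reads, up to 4 called genes with the smallest p and up to 2 uncalled genes with the highest CPM per list, and the 3 genes most like each of the 3 most abundant members. The members and lists were chosen with earlier results of these data known. Sequences, gene positions and transcripts come from RefSeq (GRCm38.p6) and GENCODE on GRCm38; symbols were matched through RefSeq synonyms. Protein sequences were not used here, and some genes that the naming rule covers are not reported here.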

Additional observations from a re-analysis of the deposited data

How the results depend on the processing

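Across 16 alternatives, none of 142 recomputed member differences changed sign, and 32 moved by at least the member's SD among pools. The groups did not overlap for any member in the fit. Leaving out a pool or changing the filter or pseudocount therefore could not have changed a sign. Member calls are no test of stability, since the list was chosen on this contrast and 4 members passed the filter only through the CDKO pools. They numbered 8 higher and 1 lower except with at least 50 reads (6 higher, with Mnda and Ifi205 not tested) and with the DESeq2 prior (6 higher), where Ifi204 and Pydc3 lost their call at 0.21 and 0.41 on the log2 scale. The size of low members depends on the scale: with pseudocounts of 0.5 and 5 the log2 difference was 4.01 and 1.56 for Ifi204, 3.50 and 1.11 for Pydc3, and 1.73 and 0.31 for Ifi205. The log2 difference of Ifi204 was 3.51 without the second control pool, which held all its control reads. Leaving out a pool moved Pydc3 between 2.47 and 2.86 and Aim2 between -1.45 and -1.18. Inflammasome genes called lower numbered 3 instead of 5 with at least 50 reads and in DESeq2, and cGAS-STING genes called lower ranged from 1 to 2 when a pool was left out. Quantile scaling turned the split of calls over all genes to 4690 higher and 4445 lower. No label pairs same-numbered pools of the groups, and the main fit did not pair them. Correlations of their deviations (0.0518, 0.0483 and -0.0120) cannot settle whether they share animals or sort days. The replicate block gave 4348 genes higher and 4894 lower. Of 67 named genes outside the family, Nr4a1 and Nr4a2 included, 56 kept their call under every alternative compared. Another 10 gained a call under some, and Nlrc4 lost it in DESeq2. Nr4a2 gained one with the replicate block, with a pseudocount of 5 and without the third CDKO pool. Calls with the fold change prior were not compared for these genes. Depth limits Ifi202b, Ifi205, Mnda and the control values of Ifi204 and Pydc3. Each control pool held 0 to 27 reads of each of these genes. CDKO pools held 36 to 73 reads of Mnda and 36 to 60 reads of Ifi205. Shared sequence limits the assignment of reads to Mnda and Ifi205 most. It also bears, to a lesser share, on Pyhin1, Ifi204, Pydc4, Mndal and Pydc3.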
